A study of Mus musculus with 4 samples.

Results

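The genes described here are the troponins and tropomyosins of skeletal muscle that were taken by their symbols, 9 genes in all. They are the troponin C genes Tnnc2 and Tnnc1, the troponin I genes Tnni2 and Tnni1, the troponin T genes Tnnt3 and Tnnt1, and the tropomyosin genes Tpm1, Tpm2 and Tpm3. A probe set, the group of short probes that reports a transcript on the array, was taken when its only gene symbol in the platform's gene table was that of a member. This gave 13 of the 12488 probe sets on the array. Tnnc2, Tnnt1, Tpm2 and Tpm3 had 2 probe sets each and the other 5 genes had 1 each. The series holds 4 arrays, each hybridised with total RNA of mouse skeletal muscle at a time of 0 h. The titles code 2 of them as J (replicates 1a and 1c) and 2 as NJ (replicates 1a and 1d), and the series title names the neuromuscular junction, where a motor nerve contacts a muscle fibre. All 4 titles also carry the code Ctr. The labels do not explain these codes, and they give no strain, age, genotype or treatment. Whether the samples are separate animals is not stated, and their spread may thus be technical.

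Troponin and tropomyosin form the calcium switch of the muscle's thin filament. Tropomyosin lies along the actin filament and covers the sites where myosin binds, and the troponin complex holds it there. Troponin C binds calcium, troponin I inhibits the contact of actin with myosin, and troponin T ties the complex to tropomyosin. When calcium binds, the complex moves tropomyosin aside and the filament can pull. Fast and slow muscle fibres use different genes for these subunits. Tnnc2, Tnni2 and Tnnt3 serve fast fibres, while Tnni1, Tnnt1 and Tnnc1 serve slow fibres, Tnnc1 also being the troponin C of the heart. Among the tropomyosins Tpm1 is the alpha chain of fast fibres, Tpm3 that of slow fibres, and the beta chain Tpm2 occurs in both. The tropomyosin genes also make shorter isoforms in smooth muscle and in cells other than muscle.

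Signals are given as deposited, in arbitrary units on a linear scale. Probe sets bind their targets with different strength, so a signal is compared only with that of the same probe set on another array. The top of the scale was lower on array J 1c than on the others. The 99.9th percentile of the probe set signals was 29096 on J 1c, against 118778 on J 1a, 98003 on NJ 1a and 76817 on NJ 1d, although the trimmed means of the 4 arrays lay between 800.5 and 800.6. A bright transcript can therefore have a low signal on J 1c and still hold its place among the transcripts of that array. For this reason each member is also given by its rank among the 12422 probe sets that are not controls, where rank 1 is the brightest, and differences were taken after quantile normalisation, which gives all arrays the same distribution. Of 10 markers of skeletal muscle, 9 had a probe set. The lowest signal of any of the 9 at its brightest probe set was 3870, that of the intermediate filament gene Des, and the sum of the 9 was 150623 on J 1c and 338245 to 587559 on the other arrays.

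**Figure D1:**
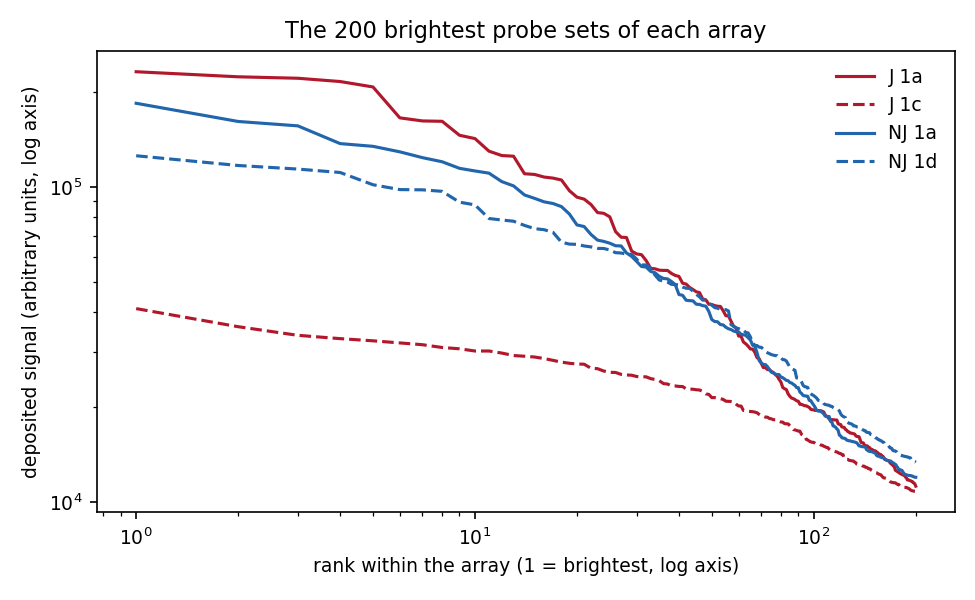
Deposited signal of the 200 brightest probe sets of each array against their rank within the array, both axes logarithmic. The line of J 1c starts at 41086 and lies below the other 3, which start between 125534 and 231943.

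Unless another scale is named, a difference is J minus NJ on the log2(signal + 32) scale after quantile normalisation. It is given with its standard error from limma and rests on 2 arrays in each group. The 1a pair is J 1a minus NJ 1a, which share a replicate label. J 1c and NJ 1d have different labels and are not a labelled pair, and J 1c minus NJ 1d, called the 1c/1d contrast, only sets the remaining array of each group side by side. This scale understates the change of dim probe sets. Of the 13 member probe sets, 11 were bright enough to test, and 6 of these had a positive and 5 a negative difference. None of the 11 passed the threshold of 0.05, with a limma adjusted p of 0.9998 for each. The same fit called 0% of all 9316 probe sets in either direction, while 2.13% had an unadjusted p under 0.05, and no member was among those. With 2 arrays a group the smallest two-sided p of an exact permutation test is 0.333. The median difference was 0.02 over the tested member probe sets and −0.01 over all tested probe sets. The groups did not overlap for 4 member probe sets. In 2 of the 11 both J arrays lay above both NJ arrays, where 13.6% of all tested probe sets did, and in 2 both lay below, where 12.9% did. These shares do not set the members apart from the other probe sets.

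**Figure D2:**
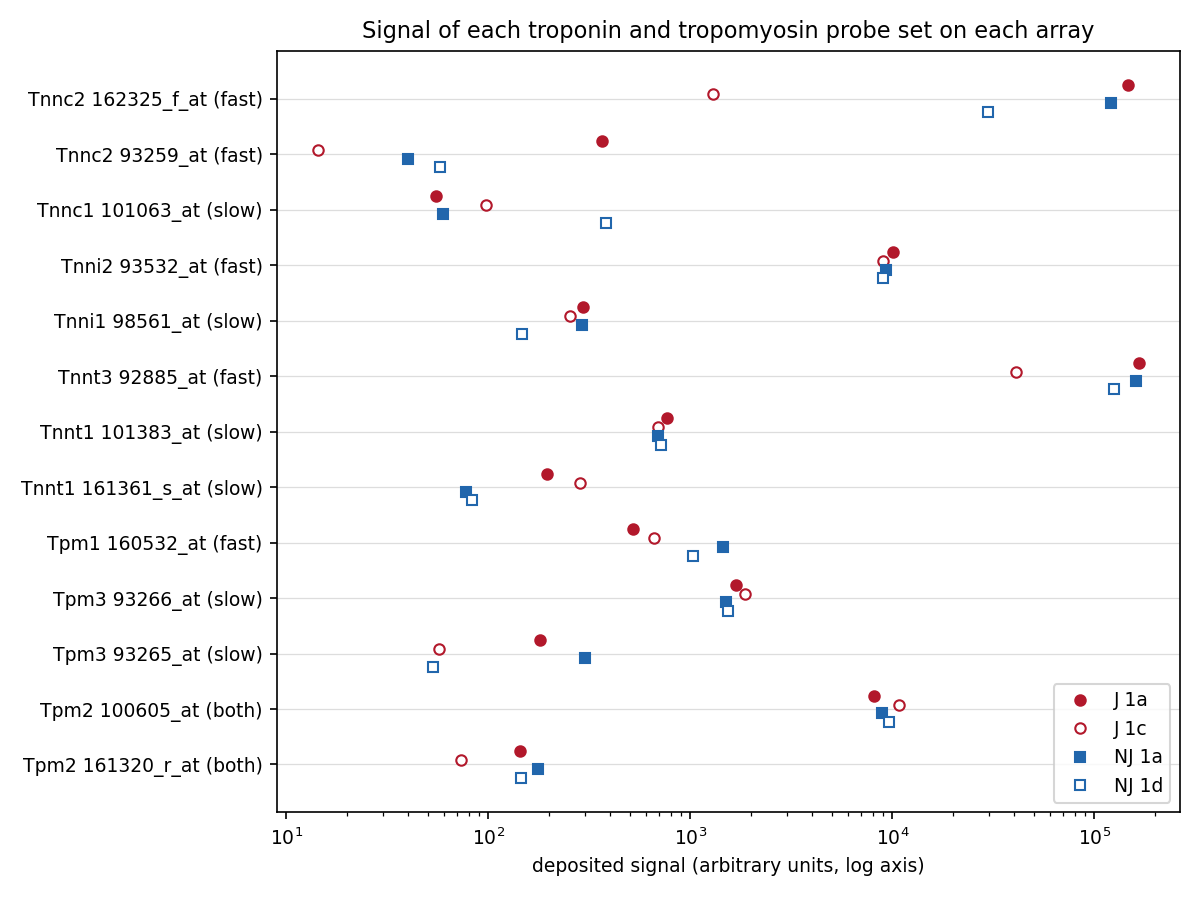
Deposited signal (log axis) of the 13 member probe sets on the 4 arrays, circles for J and squares for NJ, filled for replicate 1a; points are moved apart vertically for legibility. Tnnc2 at its brighter probe set spans 1301 on J 1c to 145820 on J 1a, while Tnni2 stays between 8936 and 10071.

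Tnnc2, which encodes the calcium sensor of fast fibres, varied more between arrays than any other tested member, and most of this came from array J 1c. Its brighter probe set, 162325_f_at, had signals of 145820 on J 1a and 1301 on J 1c in the J group, and of 120147 on NJ 1a and 29568 on NJ 1d in the NJ group. The value on J 1c was the lowest and the groups overlapped, since J 1a was the highest of the 4. The probe set ranked 9 on J 1a, 8 on NJ 1a and 74 on NJ 1d, but 2339 on J 1c. A rank does not depend on the scale of an array, and by rank too J 1c stood apart. Of the 92 probe sets that lay above the 99th percentile on each of the other 3 arrays, Tnnc2 was the only probe set below the 90th percentile on J 1c, at 81.2, in a count made after the values were seen. The same count was 0 for J 1a, NJ 1a and NJ 1d in turn, among 81, 78 and 78 probe sets. A probe set of the fast fibre gene Pvalb, which encodes the calcium buffer parvalbumin, lay just outside this count, since it was at percentile 98.8 on NJ 1d. That probe set, 96719_i_at, ranked 3 on J 1a, 4 on NJ 1a and 144 on NJ 1d, but 1333 on J 1c, at percentile 89.3. A fall in rank on J 1c was thus not particular to Tnnc2, although the other probe set of Pvalb, 96720_f_at, ranked 9 on J 1c and 28 to 40 on the other arrays.

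The difference between J and NJ for this probe set of Tnnc2 was −2.17 ± 1.50 (limma, adjusted p = 0.9998). It was −0.09 in the 1a pair and −4.26 in the 1c/1d contrast. Without J 1c it was 0.82 ± 0.71 (limma, adjusted p = 0.739). The gap between the J arrays was 5.99 and that between the NJ arrays 1.82, so the difference was smaller than the spread in J. The number format of the deposited columns splits the arrays the same way as replicate label 1a against the others, since the 1a columns are deposited in full digits and the others to 1 decimal. A fit with a term for this format, which leaves 1 residual degree of freedom, called Tnnc2 lower in J (limma, adjusted p = 0.027), 1 of 11 tested member probe sets, while it called 0.0429% of all tested probe sets lower and 0.0429% higher. The standard error of Tnnc2 in that fit was 0.46, whereas its own residual alone gives 2.09, because limma drew the variance toward the trend over all probe sets with 55.3 prior degrees of freedom. The call thus rests on that shared variance, as the 1a pair and the 1c/1d contrast of this probe set lay far apart. In the fit without the term the standard error of 1.50 compares with 3.13 from the values of the probe set alone. The lowest limma adjusted p of the other tested members in the fit with the term was 0.828.

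The second probe set of Tnnc2, 93259_at, was dim and did not pass the filter. Its signals were 366 on J 1a and 14.4 on J 1c, against 40.1 on NJ 1a and 57.4 on NJ 1d. It was also lowest on J 1c, at rank 12143, but its highest value was on J 1a alone, at rank 6300. The suffix _f_at of the brighter probe set marks probes that can match related sequences, and which transcripts bound it was not tested.

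Tnnc1, the troponin C of slow fibres, was dim on 3 of the 4 arrays, and its mean did not pass the filter. Its signals at probe set 101063_at were 55.1 on J 1a and 97.6 on J 1c, against 59.9 on NJ 1a and 381 on NJ 1d. NJ 1d stood alone, at rank 5384 against ranks of 9159 to 11216 on the other arrays, and the groups overlapped. On the same log2 scale the means were 6.69 in J and 7.59 in NJ, with gaps of 0.92 between the J arrays and 2.54 between the NJ arrays. The array with the highest signal of the slow gene was thus not the array with the lowest signal of the fast gene.

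The bases upstream of the troponin C genes are printed because their signals were the most variable of the fast members and of the slow members, by the gap between arrays of a group. The arrays measured RNA and give no reading of these sequences. They come from RefSeq, build GRCm38.p6, and run 5′ to 3′ over the 250 bases before the annotated start of each gene. The window of Tnnc2 is chr2:164779735-164779984 on the minus strand and that of Tnnc1 is chr14:31208062-31208311 on the plus strand. Capitals mark matches to an E-box, CANNTG, the core sequence bound by myogenic factors of the MyoD family, and to a TATA motif, written TATANA and searched on both strands.
Tnnc2: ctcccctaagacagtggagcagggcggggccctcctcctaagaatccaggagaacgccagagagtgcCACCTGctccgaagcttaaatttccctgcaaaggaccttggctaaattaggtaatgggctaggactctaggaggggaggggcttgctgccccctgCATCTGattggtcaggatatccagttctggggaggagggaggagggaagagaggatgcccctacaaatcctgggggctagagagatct
Tnnc1: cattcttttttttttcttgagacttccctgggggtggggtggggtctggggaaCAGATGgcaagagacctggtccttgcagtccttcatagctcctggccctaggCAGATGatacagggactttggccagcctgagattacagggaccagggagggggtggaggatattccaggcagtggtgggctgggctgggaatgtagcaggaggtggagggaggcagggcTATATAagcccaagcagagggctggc
Both windows held 2 E-boxes, which start 183 and 88 bases before the start of Tnnc2 and 197 and 145 bases before that of Tnnc1. The window of Tnnc1 also held a TATA match, 26 bases before the start, and that of Tnnc2 held none. Windows were found for 7 of the 9 members, 9 windows in all since Tnni1 and Tpm3 have 2 each, and Tnni2 and Tnnt3 had no entry. An E-box was present in 9 of the 9 windows, against 66.2% of 32851 windows of the same length, and a TATA match in 3, against 22.6%. The 2 windows of Tnni1 overlap and share 2 E-boxes, so the 9 windows are not independent. The letters CATTCC, the MCAT element bound by TEAD factors, were found on either strand in 2 windows, against 12.6%. CANNTG reads the same on both strands, and none of these matches is evidence of binding.

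**Figure D3:**
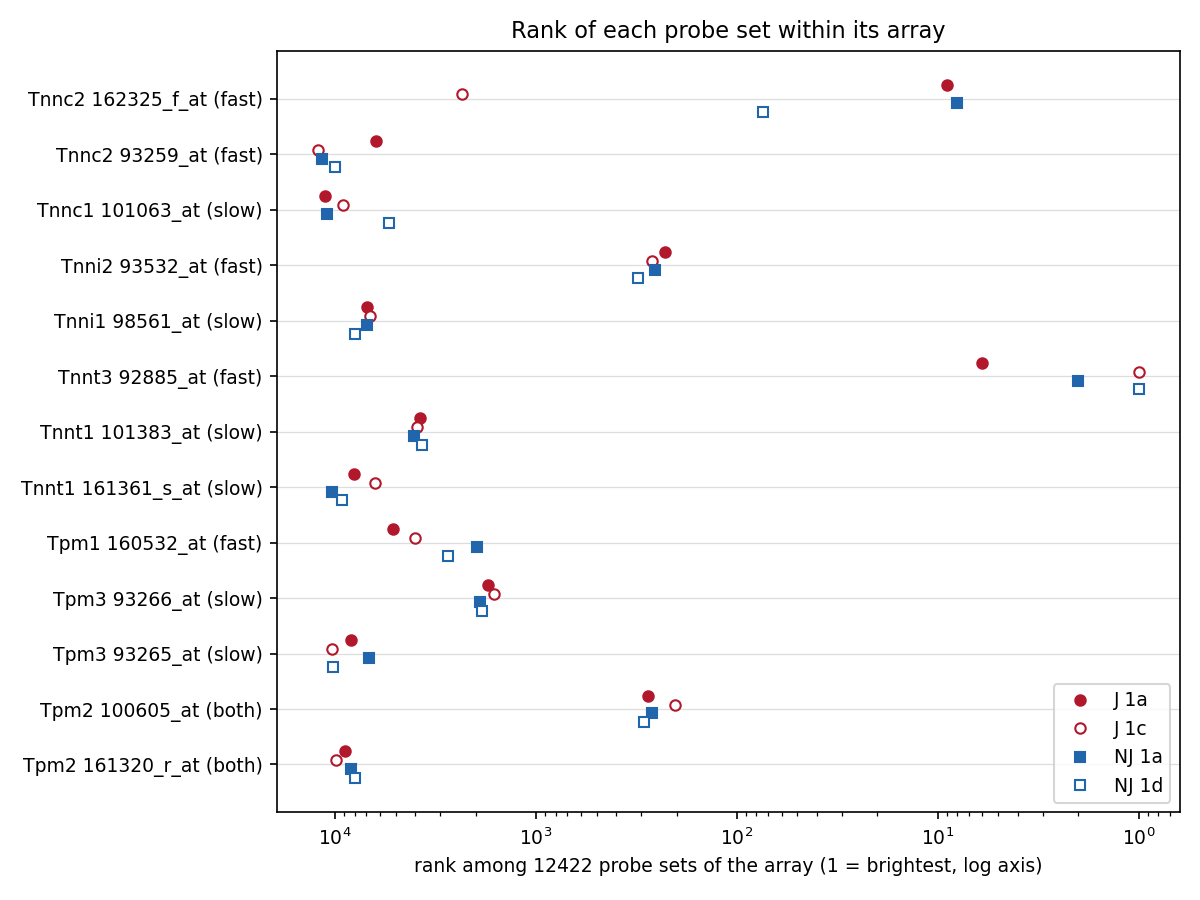
Rank of the 13 member probe sets among the 12422 probe sets of each array (log axis, rank 1 at the right), with symbols as in the plot of signals. Tnnc2 at its brighter probe set moves from ranks 8 to 74 on the other arrays to 2339 on J 1c, while Tnnt3 is at rank 1 there.

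Tnnt3, the troponin T of fast fibres, had its lowest signal on J 1c but not its lowest rank. Its signals were 165583 on J 1a and 41086 on J 1c, against 161272 on NJ 1a and 125534 on NJ 1d. By signal J 1c was far the lowest, yet Tnnt3 was the brightest probe set of that array, as it was of NJ 1d, and it ranked 6 on J 1a and 2 on NJ 1a. The difference was −0.79 on the log2 scale without normalisation and −0.15 ± 0.57 after quantile normalisation (limma, adjusted p = 0.9998). Most of its size was thus lost with the scaling. At rank 1 or near it the normalised value has little room to show a further rise, and saturation was not tested.

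Tnnt1, the troponin T of slow fibres, had 2 probe sets that differed from each other. The brighter, 101383_at, had signals of 764 on J 1a and 694 on J 1c, against 692 on NJ 1a and 712 on NJ 1d. These lay within a narrow band on all arrays, and the difference of 0.02 ± 0.54 changed sign with median centring. The dimmer, 161361_s_at, had signals of 196 on J 1a and 284 on J 1c, against 77.8 on NJ 1a and 83.3 on NJ 1d. Both J arrays lay above both NJ arrays there, with a difference of 1.18 ± 0.78, or 2.27-fold (limma, adjusted p = 0.9998). It was 1.04 in the 1a pair and 1.33 in the 1c/1d contrast, and 0.79 to 1.58 with each array left out. Its suffix _s_at marks probes shared by several transcripts, and its NJ values lay in the dimmer 25.2% of their arrays.

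Tnni2, which encodes the inhibitory subunit of fast fibres, varied little between the 4 arrays. Its signals at 93532_at were 10071 on J 1a and 8936 on J 1c, against 9346 on NJ 1a and 8981 on NJ 1d, and its ranks ran from 227 to 312. The difference was 0.19 ± 0.36 (limma, adjusted p = 0.9998), and −0.012 with median centring, so it had no settled sign. The groups overlapped, and J 1c did not stand apart. Tnni1, its slow counterpart, had signals at 98561_at of 294 on J 1a and 252 on J 1c, against 291 on NJ 1a and 147 on NJ 1d. NJ 1d was lowest and the other 3 were alike, at ranks of 6697 to 6984 against 7933. The difference was 0.27 ± 0.77, and it was −0.02 in the 1a pair and 0.57 in the 1c/1d contrast.

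Tpm1, the fast alpha tropomyosin, had lower signals in J than in NJ, with no overlap. Its signals at 160532_at were 519 on J 1a and 664 on J 1c, against 1451 on NJ 1a and 1033 on NJ 1d. Which isoforms of Tpm1 this probe set reports was not tested. The ranks were 5156 and 4016 in J and 1975 and 2741 in NJ, so the groups did not overlap by rank either. The difference was −1.11 ± 0.53, a signal 2.16-fold higher in NJ, and it did not pass the test (limma, adjusted p = 0.9998, unadjusted p = 0.064). It exceeded the gap of 0.51 between the J arrays and that of 0.46 between the NJ arrays. A difference larger than both gaps was seen for 4 of the 11 tested member probe sets and for 15.3% of all tested probe sets. With each array left out it ranged from −1.37 to −0.86, and it was −1.60 in the 1a pair and −0.62 in the 1c/1d contrast.

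Tpm3, the slow alpha tropomyosin, had signals at its brighter probe set 93266_at of 1675 on J 1a and 1867 on J 1c, against 1506 on NJ 1a and 1543 on NJ 1d. Both J arrays lay above both NJ arrays, by a small margin. The difference was 0.16 ± 0.40 or 1.12-fold (limma, adjusted p = 0.9998), with gaps of 0.09 between the J arrays and 0.02 between the NJ arrays. The standard error is larger than these gaps because limma draws each variance toward the trend over all probe sets. The dimmer probe set, 93265_at, had signals of 180 on J 1a and 57.1 on J 1c, against 302 on NJ 1a and 53.0 on NJ 1d. It split by replicate label and not by group, being high on both 1a arrays, and its difference was −0.38 ± 0.85.

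Tpm2, the beta tropomyosin of both fibre types, had signals at 100605_at of 8099 on J 1a and 10766 on J 1c, against 8918 on NJ 1a and 9564 on NJ 1d. J 1c was the highest of the 4 in signal and in rank, at 204 against 265 to 291. The difference was 0.20 ± 0.36, and −0.046 with median centring, so it had no settled sign. The other probe set, 161320_r_at, was dim, with signals of 143 on J 1a and 73.2 on J 1c, against 176 on NJ 1a and 145 on NJ 1d. Both J arrays lay below both NJ arrays there, by −0.57 ± 0.75. The probe sets of Tpm2 thus differed in sign, and the groups of the brighter overlapped.

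Tropomyosin transcripts are also made by smooth muscle and connective tissue, so markers of these cells are given beside them. The summed signal of 7 of 8 smooth muscle markers was 11436 and 9680 on the J arrays and 10209 and 6700 on the NJ arrays. For all 8 fibroblast markers the sums were 111070 and 44321 in J and 61687 and 52757 in NJ. For all 10 markers of heart and developing muscle the sums were 17818 and 13522 in J and 22802 and 17854 in NJ. No marker was at 0 on any array, the lowest being 26.3 for the heart myosin Myh6. Of these sums only that of heart and developing muscle was lower in J than in NJ without overlap, and by a narrow margin. A sum of signals follows its brightest genes. The cardiac actin Actc1 alone gave 10731 on J 1a and 9355 on J 1c at 101029_f_at, against 19041 on NJ 1a and 14534 on NJ 1d. The order of this sum is thus not taken as that of the remaining markers. The part of other cells in the results for Tpm1 and Tpm2 was not tested, and in such bulk samples fewer cells of a type cannot be told apart from less RNA per cell.

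**Figure D4:**
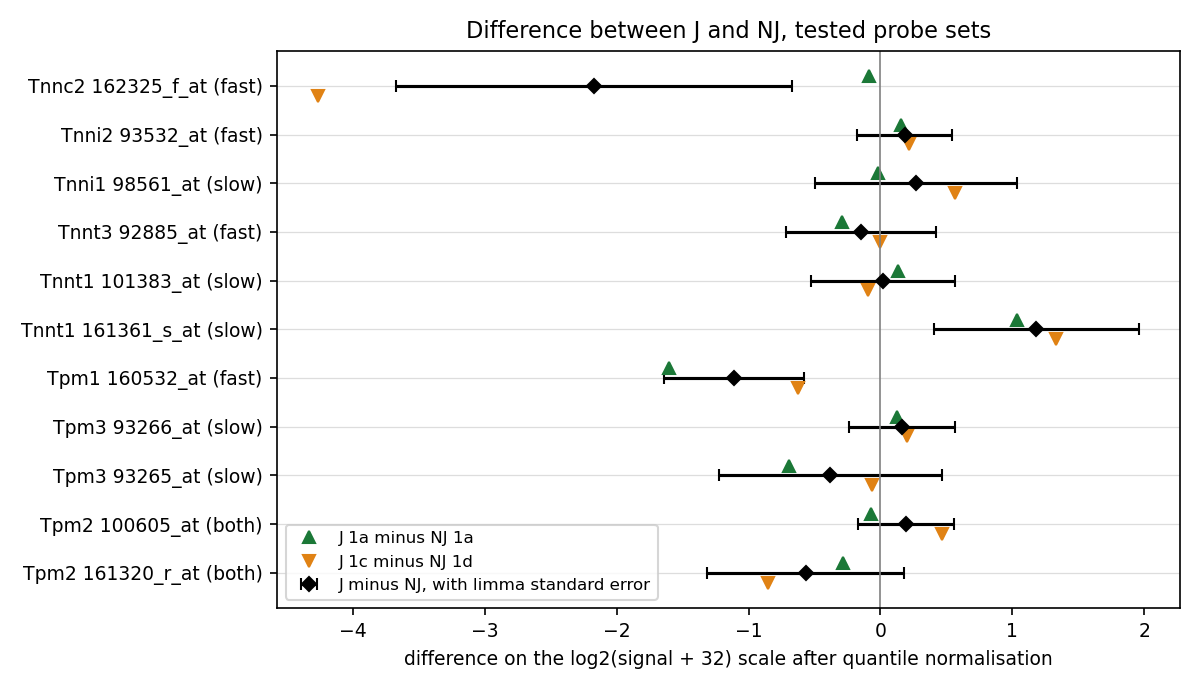
Difference of J minus NJ for the 11 tested member probe sets (black diamonds, bars are the limma standard error), with the 1a pair (upward triangles) and the 1c/1d contrast (downward triangles), all on the log2 scale. They lie far apart for Tnnc2, at −0.09 and −4.26, and on the same side for Tpm1, at −1.60 and −0.62.

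The 1a pair and the 1c/1d contrast can also be read one by one, without a test. Between J 1a and NJ 1a, 1 of the 11 tested probe sets was past 2-fold higher (Tnnt1 at 161361_s_at) and 1 past 2-fold lower (Tpm1), where 15.8% and 17.9% of all tested probe sets were. Between J 1c and NJ 1d, 1 was past 2-fold higher (Tnnt1 at the same probe set) and 1 lower (Tnnc2), where 7.76% and 7.33% were. The sign was the same in both for 7 of the 11.

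To compare fast with slow isoforms on each array, each gene, at its brightest probe set, was centred on its mean over the 4 arrays. The slow gene was then subtracted from the fast gene. This shows unequal change between arrays and says nothing about which isoform is more abundant. For troponin C, at the brighter probe set of Tnnc2, the value was 2.82 on J 1a and −4.09 on J 1c, against 2.81 on NJ 1a and −1.54 on NJ 1d. It split the arrays by replicate label, with J 1c at the extreme. Tnnc1 did not pass the filter. Its lone higher signal of 381 on NJ 1d, against 55.1 to 97.6 on the other arrays, lowers the value there. For troponin I the J arrays were at 0.13 and −0.22 and the NJ arrays at −0.04 and 0.13. For troponin T the J arrays were at −0.32 and 0.16 and the NJ arrays at 0.10 and 0.06, so that the groups overlapped for both subunits. For troponin T this overlap depended on the probe set of Tnnt1. At 161361_s_at Tnnt1 was at 7.63 and 8.43 in J and 6.60 and 7.10 in NJ (normalised log2 scale). Tnnt3 was at 16.47 and 16.90 in J and 16.76 and 16.90 in NJ. With that probe set both J arrays lay below both NJ arrays. For the alpha tropomyosins the values of Tpm1 minus Tpm3 were −0.85 on J 1a and −0.43 on J 1c, against 0.88 on NJ 1a and 0.40 on NJ 1d. Here both J arrays lay below both NJ arrays, by −1.28 in the mean, with Tpm3 taken at 93266_at. This order did not hold with the dimmer probe set of Tpm3, 93265_at. That probe set was at 6.62 on J 1c and 8.23 on NJ 1a (normalised log2 scale), where Tpm1 was at 9.47 and 10.56. With it the groups overlapped.

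Over the tested genes, 4 fast (Tnnc2, Tnni2, Tnnt3 and Tpm1) and 3 slow (Tnni1, Tnnt1 and Tpm3), the fast minus slow value was 0.21 on J 1a and −1.17 on J 1c, against 0.74 on NJ 1a and 0.22 on NJ 1d. J 1c was by far the lowest, while J 1a lay just below NJ 1d. The mean difference was −0.96 with a pooled standard deviation within groups of 0.73, and it was −0.54 in the 1a pair and −1.39 in the 1c/1d contrast. Without J 1c it was −0.28, without J 1a −1.65, and without Tnnc2, a choice made after the values were seen, −0.51. In the set without Tnnc2 the J arrays were at −0.35 and −0.16 and the NJ arrays at 0.31 and 0.20. The fast genes left in that set, Tnni2, Tnnt3 and Tpm1, differed by 0.19, −0.15 and −1.11. Most of the −0.51 thus came from Tpm1 and was not shared by the fast troponins. At the brightest probe set of each gene, the mean of the slow genes moved little, from −0.12 on NJ 1d to 0.10 on J 1c. That of the fast genes ran from −1.07 on J 1c to 0.71 on NJ 1a. The low value on J 1c came mostly from Tnnc2, at 10.34 there and 14.60 to 16.41 on the other arrays (normalised log2 scale). Tnni2 was at 13.17 on J 1c, within its range of 12.95 to 13.39 on the others, and Tnnt3 was at rank 1. No test is given for the fast and slow scores because the members were chosen with results known.

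**Figure D5:**
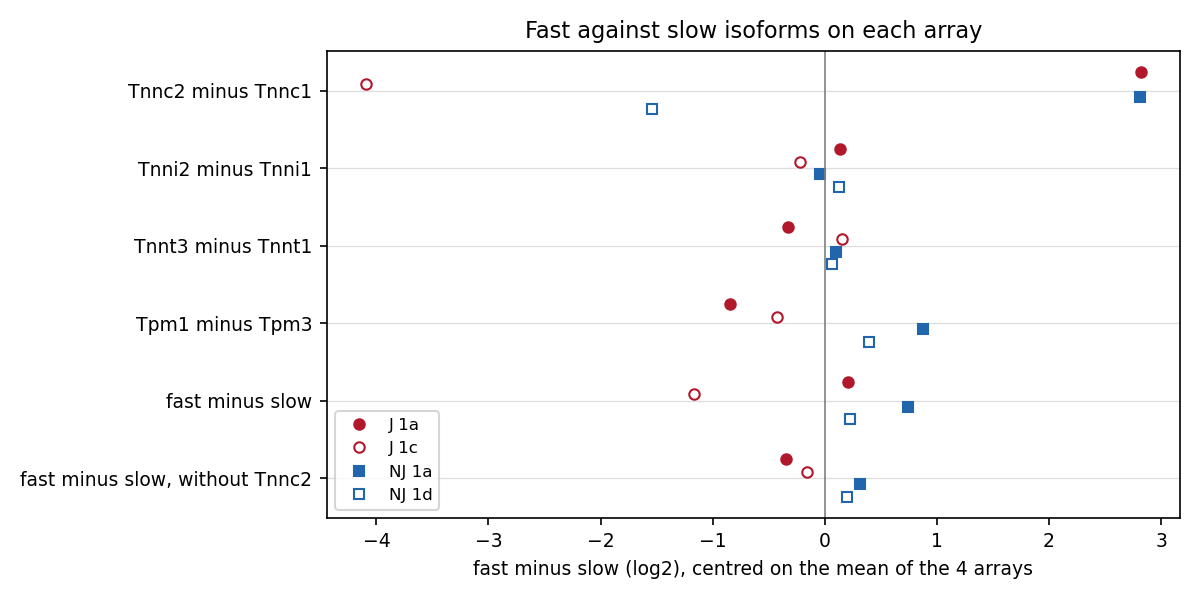
Fast minus slow isoform on each array, log2 scale, centred on the mean of the 4 arrays, for each subunit pair and for the means of the tested fast and slow genes; symbols as in the plot of signals. Each gene is shown at its brightest probe set. For Tpm1 minus Tpm3 both J arrays (−0.85 and −0.43) lie left of both NJ arrays (0.88 and 0.40), and for Tnnc2 minus Tnnc1 the arrays part by replicate label.

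No other gene of the thin filament was called. Of 18 listed, 11 had a probe set and 10 were tested, 3 of them with a positive and 7 with a negative difference, 0 called by limma in either direction (0 at an unadjusted p under 0.05 too), and their median was −0.38 against −0.01 over all tested probe sets. Without J 1a that median was −0.050. The skeletal actin Acta1 gave 207533 on J 1a and 32990 on J 1c, against 123803 on NJ 1a and 87672 on NJ 1d. Its difference was 0.24 ± 0.53, but −0.33 on the log2 scale without normalisation. The mean of its deposited linear signals was 120261 in J and 105738 in NJ. The sign thus differed between the log2 scale with and without normalisation, whereas for Tnnt3 only the size did. The cardiac actin Actc1 differed by −0.57 ± 0.38 at its brighter probe set and by −0.81 ± 0.50 at the other, with both J arrays below both NJ arrays in each. At the second, 101028_i_at, J 1c minus NJ 1d was only −0.0031, and in deposited signals the groups overlapped, with 1104 and 3106 in J and 3330 and 3063 in NJ.

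Tpm4, a tropomyosin of cells other than muscle, gave 564 on J 1a and 1854 on J 1c, against 2141 on NJ 1a and 1800 on NJ 1d. It was low on J 1a alone, and its difference was −1.01 ± 0.59. Among actinins, which anchor actin at the Z-disc, Actn2 differed by −0.77 ± 0.64 and the fast fibre form Actn3 by −1.19 ± 0.70. Cfl2, the muscle cofilin, differed by −0.61 ± 0.47 and the actin-binding protein Xirp1 by 0.25 ± 0.37. The actin capping subunits Capza2 and Capzb differed by −0.10 ± 0.43 and −0.19 ± 0.36. These values are from the brightest probe set of each gene. At its other probe sets Capzb differed by 0.49 ± 0.78 (95141_at) and −0.05 ± 0.41 (95142_s_at), so its sign was not settled. Cfl2 differed by −1.285 ± 0.84 at 162088_r_at. Of the heart troponins, Tnnt2 differed by 0.78 ± 0.81, with 330 on J 1a and 72.5 to 91.1 on the other arrays. Tnni3 was too dim to test, at 72.5 to 177.

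Genes of fast and of slow fibres outside the family gave 0 limma calls as well. With the brightest probe set standing for each gene, 0 genes of either list had an unadjusted p under 0.05, and over all tested probe sets 1 of 16 of the fast list and 0 of 9 of the slow list did. Of 11 tested fast fibre genes 3 had a positive and 8 a negative difference. Their median was −0.18, against −0.60 on the log2 scale without normalisation. Atp2a1, the calcium pump of fast fibres, differed by −1.27 ± 0.81, Actn3 as above, and Myh4, the myosin of the fastest fibres, by −1.07 ± 0.75, each at its brightest probe set. At these probe sets the 3 genes differed little in the 1a pair, by −0.12 for Actn3, −0.03 for Atp2a1 and 0.00 for Myh4. In the 1c/1d contrast they differed more, by −2.26, −2.50 and −2.15. Myh4 was at rank 1 on both 1a arrays, which fixes its normalised difference there at 0.00. Its deposited signals were 231943 on J 1a and 184184 on NJ 1a. Actn3 and Atp2a1 were at ranks 6 to 12 on these arrays, where normalised values have little room to show a further rise. A low value in the 1c/1d contrast was also seen at the other probe set of Actn3, but not at those of Atp2a1 and Myh4. Atp2a1 at 98126_s_at was higher in both J arrays, with 43825 on J 1a and 22667 on J 1c, against 21780 on NJ 1a and 13926 on NJ 1d. Its difference of 1.23 ± 0.43 is the one with an unadjusted limma p under 0.05, at 0.018 (adjusted p = 0.9998), and it was 0.85 in the 1a pair and 1.61 in the 1c/1d contrast. Actn3 at 162164_f_at gave 0.73 and −1.54, and Myh4 at 161545_r_at gave 0.52 and 0.03. The sign for Atp2a1 and for Myh4 thus depended on the probe set. With each array left out the median of the list ranged from −0.41 without J 1a to 0.02 without J 1c. Of 8 tested slow fibre genes 3 had a positive and 5 a negative difference, and the median of −0.46 ranged from −0.99 without J 1a to 0.10 without J 1c. It was −0.14 without NJ 1a, −0.25 with cyclic loess and −0.17 with the filter at the median. Fabp3, a fatty acid carrier of oxidative fibres, differed by −0.52 ± 0.39, Actn2 as above, and Myh7, the slow myosin, by −1.13 ± 0.95. Myh7 was high on NJ 1d alone, at 974, while the remaining arrays gave 112 to 278. J minus NJ for it was 0.45 in the 1a pair and −2.71 in the 1c/1d contrast. Its other probe set, 161547_f_at, differed by −0.18 ± 0.77.

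The genes whose pattern over the 4 arrays was closest to the mean of the fast members were sought among 5553 other probe sets brighter than the median. By the Euclidean distance between centred log2 values, they were Slc39a7 (distance 0.19), Sstr2 (0.21), Uqcc1 (0.23), Tcte2 (0.24) and Slpi (0.26). Closest to the slow members were Atp13a2 (0.05), Ckb (0.05), Naglu (0.07), Isoc1 (0.08) and Galm (0.08). With 4 arrays many probe sets have a like order, and the slow profile is nearly flat, so these names describe the values and no more.

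Several troponin genes lie in pairs of a troponin I and a troponin T gene. In the order of protein-coding genes in the RefSeq table, Tnni2 and Tnnt3 are separated by Lsp1 alone, Tnnt1 lies next to Tnni3, and Tnni1 and Tnnt2 are separated by Lad1. Lsp1, an actin-binding protein of leukocytes, gave 2519 on J 1a and 717 on J 1c at its brighter probe set, against 170 on NJ 1a and 261 on NJ 1d. Its dimmer probe set gave 1498 on J 1a and 173 on J 1c, against 120 on NJ 1a and 152 on NJ 1d. At the dimmer probe set the difference was 3.47 in the 1a pair and 0.06 in the 1c/1d contrast. It lay mostly in J 1a there. At the brighter probe set it was 3.91 in the 1a pair and 1.17 in the 1c/1d contrast, so it was not confined to J 1a. The J minus NJ difference of the brighter probe set was 2.54 ± 0.77 (limma, unadjusted p = 0.0086). Neither probe set was called (limma, adjusted p = 0.9998 for each). The flanking Tnni2 and Tnnt3 differed by 0.19 and −0.15.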

How the data were processed

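Total RNA of mouse skeletal muscle was measured on 4 arrays, 2 coded J and 2 coded NJ in the titles. The values deposited by the authors are 1 linear intensity per probe set and array. How they were made is not given in the sources used here. Of 12488 probe sets, 66 controls were left out. Names came from the platform's gene table, with 10833 probe sets of 1 symbol, 396 of several and 1193 unnamed here.

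Intensities were taken as log2(value + 32) and quantile normalised, and probe sets with a mean above the 25th percentile, 9316 in number, were tested with limma 3.58.1 in R 4.3.3 (eBayes with trend, Benjamini-Hochberg over all 9316). The number of arrays limits the precision. The script was tested on simulated data. The members, lists, number-format term and tests were chosen with earlier results of these data known. Every member probe set is named, every measured thin filament gene, the 3 genes with the smallest unadjusted p of each fibre list, and the 5 nearest genes per profile, at 1 probe set per gene. The brightest probe set stands for a gene in lists and in fast minus slow values. Alternatives were the log2 scale without normalisation, median centring, cyclic loess, pseudocounts of 1 and 100, and no filter or one at the median. Further ones were no trend, the number-format term, mean of probe sets, troponins alone and leaving out each array. Figures used matplotlib 3.10.9 in Python 3.11.15.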

Additional observations from a re-analysis of the deposited data

How the results depend on the processing

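No paired analysis was possible because the groups share 1 replicate label only, but the number-format term splits the arrays as 1a against 1c and 1d, and the fit with it is a blocked fit of that split. In 139 refits of the 11 tested member probe sets, 128 kept the sign and the side of the threshold, 10 changed sign and 1 newly passed, Tnnc2 with the number-format term. That term gave 4 probe sets higher and 4 lower in J over the whole array, against 0 and 0 otherwise. Median centring turned Tnni2 to −0.012, Tnnt1 at 101383_at to −0.012 and Tpm2 at 100605_at to −0.046. With each array left out, the difference ranged from −5.17 to 0.82 for Tnnc2 (positive without J 1c), from −0.068 to 0.11 for Tnnt1 at 101383_at, from −0.36 to 0.067 for Tnnt3 (positive without J 1a), from −0.0062 to 0.40 for Tpm2 at 100605_at and from −1.15 to 0.39 for Tpm3 at 93265_at. The cause was not tested. The fast minus slow difference was −1.65 to −0.28 with each array left out and −1.16 to −0.70 under the other alternatives apart from leaving out Tnnc2, which gave −0.51. The fast fibre median was −0.60 on the log2 scale without normalisation and −0.66 after centring on medians. The slow fibre median was −0.25 with cyclic loess and −0.17 with the filter at the median. The thin filament median was −0.57 with the filter at the median, where fewer genes are tested, and −0.48 to −0.050 with each array left out, the last without J 1a. Across scalings the median of all tested probe sets stayed between −0.04 and 0.02. Probe sets near background, as Tnnc1 and the dimmer one of Tnnc2, carry little weight.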

Other observations

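Among the probe sets above the 99th percentile on the other 3 arrays, 2 of 92 lay below the 95th percentile on J 1c, and this count was chosen after the values were seen. Beside Tnnc2, at 81.2, the other was a probe set of Snrpb, which encodes a core protein of the splicing machinery, at 91.1 with a signal of 2661. The corresponding counts were 0 for J 1a, NJ 1a and NJ 1d, whose lowest percentiles were 98.1, 98.7 and 98.3. The median percentile of the 92 probe sets on J 1c was 99.6.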
